A study of Mus musculus with 4 samples.

Results

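The 37 genes described here encode the Wnt signalling pathway: 19 Wnt ligands, 7 Frizzled receptors, 2 LRP co-receptors, 4 TCF/LEF transcription factors, beta-catenin, the feedback gene Axin2 and 3 secreted inhibitors. They were chosen by name and make up 37 of the 21887 protein-coding genes placed on assembled chromosomes of the mouse mm10 genome. For each, all accessible regions (peaks) that overlapped the gene body or the 50 kb on either side were collected, as was the subset within 1 kb of the gene start. The windows merged into 33 stretches with a total length of 4.86 Mb, because Wnt1 and Wnt10b, Wnt3 and Wnt9b, Wnt3a and Wnt9a, and Wnt6 and Wnt10a are neighbours with overlapping windows.

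Chromatin accessibility was assayed in single nuclei, in which a transposase cuts open DNA, with RNA taken from the same nuclei and not used here. The cells were mouse embryonic stem cells derived from blastocysts, either wild type or lacking Cdc14a and Cdc14b, which encode phosphatases acting on cyclin-dependent kinase substrates. Undifferentiated cells (day 0) were held in LIF, a cytokine that maintains pluripotency, and differentiating cells were taken after 5 days in N2B27 with EGF and FGF2, a neural medium. Cells of both genotypes had been grown on feeder cells, which were removed by plating on gelatin. Each of the 4 groups held 1 library, so no value below has a replicate check and no test was possible. The labels give clone 3 for every library, and an effect of the knockout cannot be told apart from a difference between the cell lines used. Values for the libraries are listed in library order, which is wild type then knockout at day 0, followed by the same pair at day 5.

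The lists held 198799, 222198, 189516 and 227816 peaks on assembled chromosomes in library order, of which 837, 914, 728 and 897 lay in the Wnt windows. Neither peak heights nor sequencing depth were known, and an unlisted peak does not show that the chromatin was closed. Each list pools all nuclei of its library, so a change in the makeup of the cells and a change within cells cannot be told apart. Start peaks were present in all 4 libraries at all 6 stem cell markers examined (Pou5f1, Nanog, Zfp42, Esrrb, Sox2 and Dppa4), but also at all 6 neural progenitor markers, so presence of a peak did not separate the days. Peaks covered 162, 171, 115 and 161 kb over the stem cell marker windows and 87.8, 88.1, 90.0 and 83.8 kb over the neural ones in library order. Of 6 fibroblast markers, 5, 6, 6 and 6 had a start peak (Col3a1 had 0 bp in wild type at day 0), and peaks covered 83.5, 108.2, 94.4 and 104.2 kb over their windows. Start peaks were also listed at 3, 4, 4 and 5 of 5 endoderm markers and at 4, 3, 4 and 4 of 4 mesoderm markers. Of 256 genes on Y, 1, 1, 4 and 1 had a start peak, so wild type at day 5 stood apart in this respect. The share of peaks on X was 2.15, 2.50, 2.17 and 2.92%, higher in both knockout libraries than in both wild-type ones. With 1 library per group, no comparison can be repeated without either kind.

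Wnt ligands are secreted, lipid-modified proteins that bind Frizzled receptors together with LRP5 or LRP6. In the canonical branch this stops the destruction of beta-catenin, which enters the nucleus and turns TCF/LEF proteins from repressors into activators of target genes such as Axin2. Wnt signalling supports self-renewal of mouse stem cells, largely by relieving repression by TCF7L1, and in the embryo it favours primitive streak and posterior fates over anterior neural ones, where inhibitors such as DKK1 and the SFRP proteins hold it back.

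Peaks covered more of the Wnt windows than of the typical gene window in every library. The median member window was covered to 15.1, 17.4, 12.5 and 15.8% in library order, against medians over all genes of 11.5, 12.8, 9.75 and 12.4%. Levels differed widely within the family. Wnt10b, a ligand of mammary and bone biology whose window includes Wnt1, was covered to 25.9, 24.4, 22.4 and 23.4%, while Fzd1, a receptor gene of a single exon, was covered to 3.25, 6.08, 5.58 and 3.92%. Averaged over the libraries, peaks covered 26.2 to 47.1 kb at the 4 TCF/LEF genes, with Tcf7l1 the highest of all members, and 31.7 and 32.4 kb at Lrp5 and Lrp6. Ligand windows ran from 10.6 kb (Wnt2) to 34.8 kb (Wnt5b) and Frizzled windows from 4.92 kb (Fzd1) to 21.3 kb (Fzd7). Ctnnb1 had 17.05 kb, Axin2 20.3 kb, and the inhibitors 6.40 (Dkk1) to 18.7 kb (Sfrp1). Windows differ in length with the gene, so these sums are not comparable as densities.

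**Figure D1:**
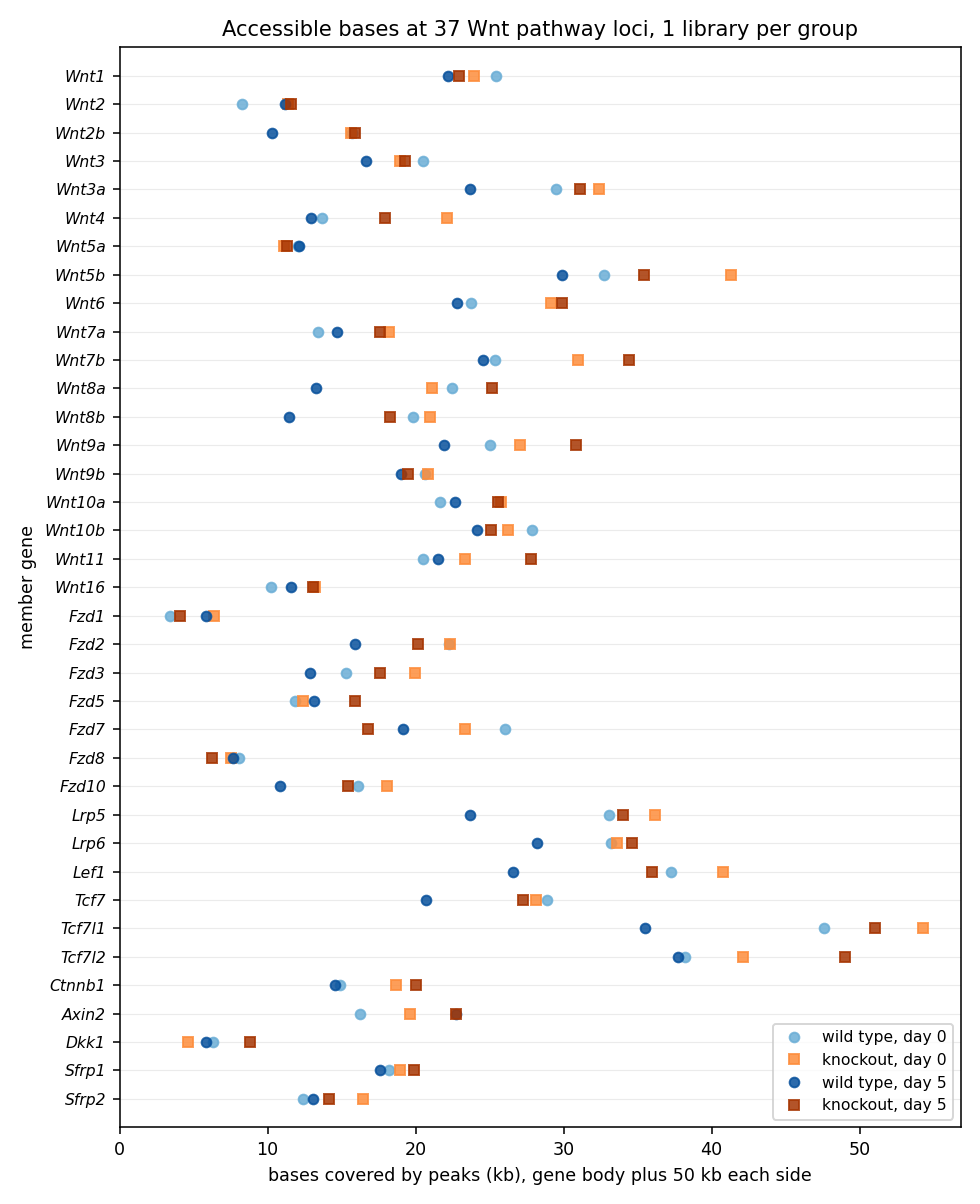
Bases covered by peaks (kb, horizontal axis) in the window of each of the 37 genes (vertical axis), with 1 point per library. Wild type at day 5 is the lowest point at 24 genes, and Fzd1, Fzd8 and Dkk1 lie near the left edge with under 10 kb on average.

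In covered bases, wild type at day 5 was the lowest library at 24 of 37 members (64.9%, against 67.5% of all genes), and the knockout at day 0 was the highest at 16 (43.2%, against 43.3%). The wild-type day 5 list was also the shortest; the longest, that of the knockout at day 5, was highest at 13 members (35.1%). Both knockout libraries lay above both wild-type libraries at 19 members, a pattern seen at 41.1% of all genes. The converse held for 2 members, Wnt5a and Fzd8, and for 1.74% of all genes. Wnt5a, the main non-canonical ligand, had 12079 and 12095 covered bp in wild type (day 0 and day 5) and 11112 and 11306 bp in the knockout. Both day 5 libraries lay above both day 0 libraries at Axin2 and Fzd5 (2 members, 10.1% of all genes), and both day 0 libraries lay above both day 5 libraries at 9 members, among them the transcription factor genes Lef1 and Tcf7 (30.3% of all genes). Ratios between libraries are given below on the log2 scale after a pseudocount of 500 bp, relative to the median over all genes, and a locus counts as past the threshold when it differs from that median by more than 1.5-fold (0.585 on the log2 scale). All 37 members had the 2000 bp of mean coverage required for a ratio in each comparison.

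Most gene starts of the family were accessible throughout. A start peak was listed in all 4 libraries at 33 of 37 members, compared with 69.9% of all genes, and at no member was it missing from all libraries (21.6% of all genes). Counts per library were 35, 35, 35 and 36 in library order, against 73.6, 74.6, 73.4 and 75.2% of all genes. All receptor, co-receptor, TCF/LEF, beta-catenin, Axin2 and inhibitor genes belonged to the 33. The 4 exceptions were the ligand genes Wnt7a, Wnt8b, Wnt10a and Wnt10b. Such a partial pattern was found at 8.48% of all genes. Start positions came from RefSeq for 27 members. For Wnt5a, Wnt7b, Wnt8a, Wnt10a, Fzd2, Fzd3, Fzd8, Lrp5, Lrp6 and Sfrp1 the more accessible gene end was used instead, which may be the 3' end.

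**Figure D2:**
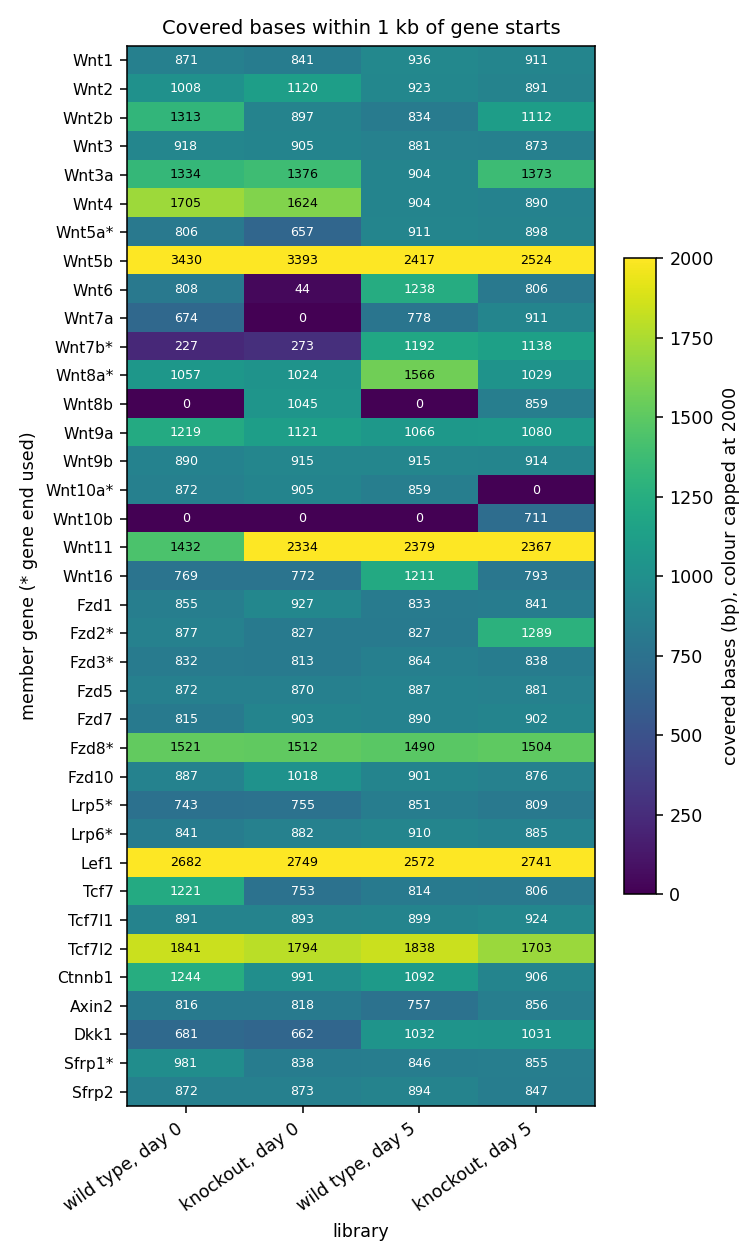
Covered bases (bp) within 1 kb of the start of each member gene (rows) in each library (columns), with the number printed in each cell and the windows of all listed starts of a gene merged where they overlap. Zeros appear only at Wnt7a, Wnt8b, Wnt10a and Wnt10b, and Wnt6 in the knockout at day 0 holds 44 bp.

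Wnt8b, a ligand of the developing forebrain and hippocampal margin, had a start peak in both knockout libraries and in neither wild-type library. Covered bases within 1 kb of its start (chromosome 19, 44493472) were 0 in wild type against 1045 bp in the knockout at day 0, and 0 and 859 bp at day 5. The knockout peaks spanned 44493306 to 44494350 at day 0 and 44493301 to 44494159 at day 5, so both lay over the start itself. A start peak in both knockout libraries only was found at 113 genes (0.516%). The converse, a peak in both wild-type libraries only, was found at 0 members and 0.169% of all genes. Wnt10b had one in the knockout at day 5 only, spanning 98777897 to 98778607 on chromosome 15 over the start at 98778150 and covering 711 bp of the window; 1.17% of all genes had that pattern. Wnt7a, a ligand of neural and limb patterning, had one in every library except the knockout at day 0 (674, 0, 778 and 911 bp in library order), as did 0.397% of all genes. At day 5 the Wnt7a peaks ran over the start in both genotypes (91411095 to 91411872 in wild type against 91411099 to 91412009 in the knockout, chromosome 6), while the wild-type peak at day 0 ran from 91411456 to 91412129, upstream of it. At Wnt10a the low-coordinate gene end had a peak in all libraries but the knockout at day 5 (872, 905, 859 and 0 bp; 0.429% of all genes).

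Start peaks present in one library of a pair only were found at 0 to 2 members in each direction. At day 0, 1 member had one in the knockout alone (Wnt8b, 2.2% of all genes) and 1 in wild type alone (Wnt7a, 1.27%). At day 5 there were 2 in the knockout alone (Wnt8b and Wnt10b, 3.33%) and 1 in wild type alone (Wnt10a, 1.54%). From day 0 to day 5 wild type had 0 members with a start peak gained and 0 with one lost, against 2.44% and 2.72% of all genes. In the knockout 2 members had a peak at day 5 alone (Wnt7a and Wnt10b, 2.49%) and 1 at day 0 alone (Wnt10a, 1.9%).

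Single starts also differed within genes that have several, or by position within the window. Wnt11, a non-canonical ligand, has 2 listed starts. The distal one (chromosome 7, 98835112) had 0, 906, 930 and 926 bp covered in library order, so it lacked a peak in wild-type stem cells alone, while the other (98838845) had 1432, 1428, 1449 and 1441 bp. At Wnt6, a ligand of epithelia, a peak lay over the start (74771892 on chromosome 1) in wild type at day 0 and in both day 5 libraries, and the knockout at day 0 had only the edge of a downstream peak in the window (44 bp). At Wnt4, which encodes a ligand of kidney and gonad development, a peak just inside the gene was listed in both genotypes at day 0 (137277857 to 137278762 in wild type against 137277898 to 137278823 in the knockout, chromosome 4) and in neither at day 5. Covered bases at the Wnt4 start were thus 1705 and 1624 bp at day 0 and 904 and 890 bp at day 5. Dkk1 went the other way, with 681 and 662 bp at day 0 and 1032 and 1031 bp at day 5 in wild type and knockout, through a second peak within its start window that both day 5 libraries held. The Wnt7b gene end had 227 and 273 bp at day 0 and 1192 and 1138 bp at day 5.

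The sequences upstream of starts that differed between libraries are printed here beside those of 3 TCF/LEF pathway genes whose starts were accessible in all libraries, so that their base composition can be compared. Each runs 5' to 3' on the gene's strand and ends at the base before the start, or at the outer end of the gene where a longer transcript exists (Wnt10b and Wnt11). The Axin2 start shown lies inside the outermost gene model. They are taken from RefSeq (GRCm38.p6, which numbers chromosomes as mm10 does). Capitals mark a match to the TCF/LEF core, searched as CTTTGAA or CTTTGAT on both strands. The forms differ in their last base, so a site on one strand matches only one of them, and matches on opposite strands can share end bases.
Wnt8b (chr19:44493222-44493471, plus strand): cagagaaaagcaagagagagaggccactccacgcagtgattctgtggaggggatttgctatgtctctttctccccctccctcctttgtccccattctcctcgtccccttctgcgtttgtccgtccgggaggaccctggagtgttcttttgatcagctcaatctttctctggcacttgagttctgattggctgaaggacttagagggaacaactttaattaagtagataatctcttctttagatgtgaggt
Wnt10b (chr15:98778207-98778400, minus strand): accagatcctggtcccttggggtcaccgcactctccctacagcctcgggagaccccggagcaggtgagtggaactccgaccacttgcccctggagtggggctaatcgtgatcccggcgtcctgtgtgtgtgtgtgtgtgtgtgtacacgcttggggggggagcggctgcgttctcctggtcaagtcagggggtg
Wnt7a (chr6:91411354-91411603, minus strand): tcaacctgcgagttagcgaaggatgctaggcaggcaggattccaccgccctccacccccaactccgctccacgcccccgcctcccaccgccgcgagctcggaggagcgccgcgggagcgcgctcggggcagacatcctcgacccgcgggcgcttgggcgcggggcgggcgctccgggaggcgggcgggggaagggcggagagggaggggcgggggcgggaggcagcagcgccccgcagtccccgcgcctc
Wnt11, distal start (chr7:98834862-98835083, plus strand): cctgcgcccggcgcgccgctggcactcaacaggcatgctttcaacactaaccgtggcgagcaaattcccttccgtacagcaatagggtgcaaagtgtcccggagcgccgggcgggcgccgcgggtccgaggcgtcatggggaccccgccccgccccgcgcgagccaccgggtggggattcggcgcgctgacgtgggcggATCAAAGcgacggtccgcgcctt
Axin2 (chr11:108920099-108920348, plus strand): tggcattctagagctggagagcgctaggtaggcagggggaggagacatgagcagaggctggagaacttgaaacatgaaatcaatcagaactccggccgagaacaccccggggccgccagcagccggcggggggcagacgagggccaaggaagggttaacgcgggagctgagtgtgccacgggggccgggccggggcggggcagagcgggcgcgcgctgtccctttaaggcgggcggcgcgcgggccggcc
Lef1 (chr3:131110047-131110296, plus strand): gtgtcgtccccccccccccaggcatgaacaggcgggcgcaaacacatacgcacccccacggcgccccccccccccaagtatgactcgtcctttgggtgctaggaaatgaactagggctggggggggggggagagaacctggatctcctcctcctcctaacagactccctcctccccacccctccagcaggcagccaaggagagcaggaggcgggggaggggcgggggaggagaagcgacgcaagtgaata
Tcf7l1 (chr6:72789046-72789295, minus strand): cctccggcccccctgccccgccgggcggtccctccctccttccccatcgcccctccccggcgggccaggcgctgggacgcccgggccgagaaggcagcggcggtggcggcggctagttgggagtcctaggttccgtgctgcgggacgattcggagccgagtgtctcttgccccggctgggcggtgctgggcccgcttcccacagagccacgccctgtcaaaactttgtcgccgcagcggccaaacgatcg

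Upstream sequences of the family were rich in G and C. Over the 36 listed starts of 27 members the 250 upstream bases had a median GC content of 68.6% and a median of 22 CpG dinucleotides, against 55.6% and 10 over the 21263 starts of all protein-coding genes with an entry. Wnt8b had 48.4% GC and 5 CpG, whereas Wnt7a had 77.6% and 34, Wnt10b 66.8% and 14, and Tcf7l1 73.6% and 29. The TCF/LEF core was found in 3 of the 36 (8.33%) and in 6.73% of all starts. These were the distal Wnt11 start, one Wnt5b start and Dkk1, shown with 10 bases on either side of the match.
Dkk1 (chr19:30549597-30549623, minus strand): cctcccaaagCTTTGAAatcccatccc
Wnt5b (chr6:119449441-119449467, minus strand): gtaagtctctCTTTGATctgctccctg
A match to these letters is a description and not a binding site.

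Undifferentiated cells of the genotypes were compared to ask whether loss of the phosphatases alters accessibility before differentiation. The Wnt loci spread around the median of all genes, and 1 member stood past the threshold. Fzd1 had 3393 covered bp in wild type against 6350 bp in the knockout, a ratio of 0.70 (percentile 97.8 of all genes). It was the sole member of 37 past 1.5-fold higher, and 0 were past it lower, against 3.37 and 1.76% of all genes. The member median was 0.01, and the interquartile range of all genes was -0.14 to 0.16. Relative to the median of all genes, 20 members were above and 17 below. Scaled by total covered bases instead, 15 were above 0 and 22 below, but that scaling moved the median of all genes to -0.06. Fzd1 had 0.52 with a pseudocount of 2000 bp and 0.58 with numbers of peaks in place of bases, short of the threshold.

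Of the 19 ligands at day 0, 10 were above and 9 below the median of all genes, and ratios ran from -0.23 (Wnt5a) to 0.56 (Wnt4). Region counts at single loci are given for members picked by their large ratios, so they partly restate those ratios. Over the genome 24.5% of knockout and 15.7% of wild-type regions at day 0 were listed in that genotype alone of the pair. At Wnt4 peaks covered 13668 bp in wild type (16 peaks) against 22146 bp in the knockout (26 peaks). Here 12 regions were listed in the knockout alone against 2 in wild type alone. The widest of the 12 lay at chr4:137315882-137317045, 38.8 kb downstream of the Wnt4 start and outside any protein-coding gene, and was listed in both day 5 libraries too. Frizzled genes ran from -0.27 (Fzd7, a receptor abundant in stem cells) to 0.70 (Fzd1). Lrp5 and Lrp6, the co-receptor genes, had 0.01 and -0.10. The TCF/LEF genes ran from -0.15 (Tcf7) to 0.07 (Tcf7l1), Ctnnb1 had 0.20 and Axin2 0.15. The inhibitors ran from -0.51 at Dkk1 (6292 bp in wild type against 4655 bp in the knockout) to 0.28 at Sfrp2.

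**Figure D3:**
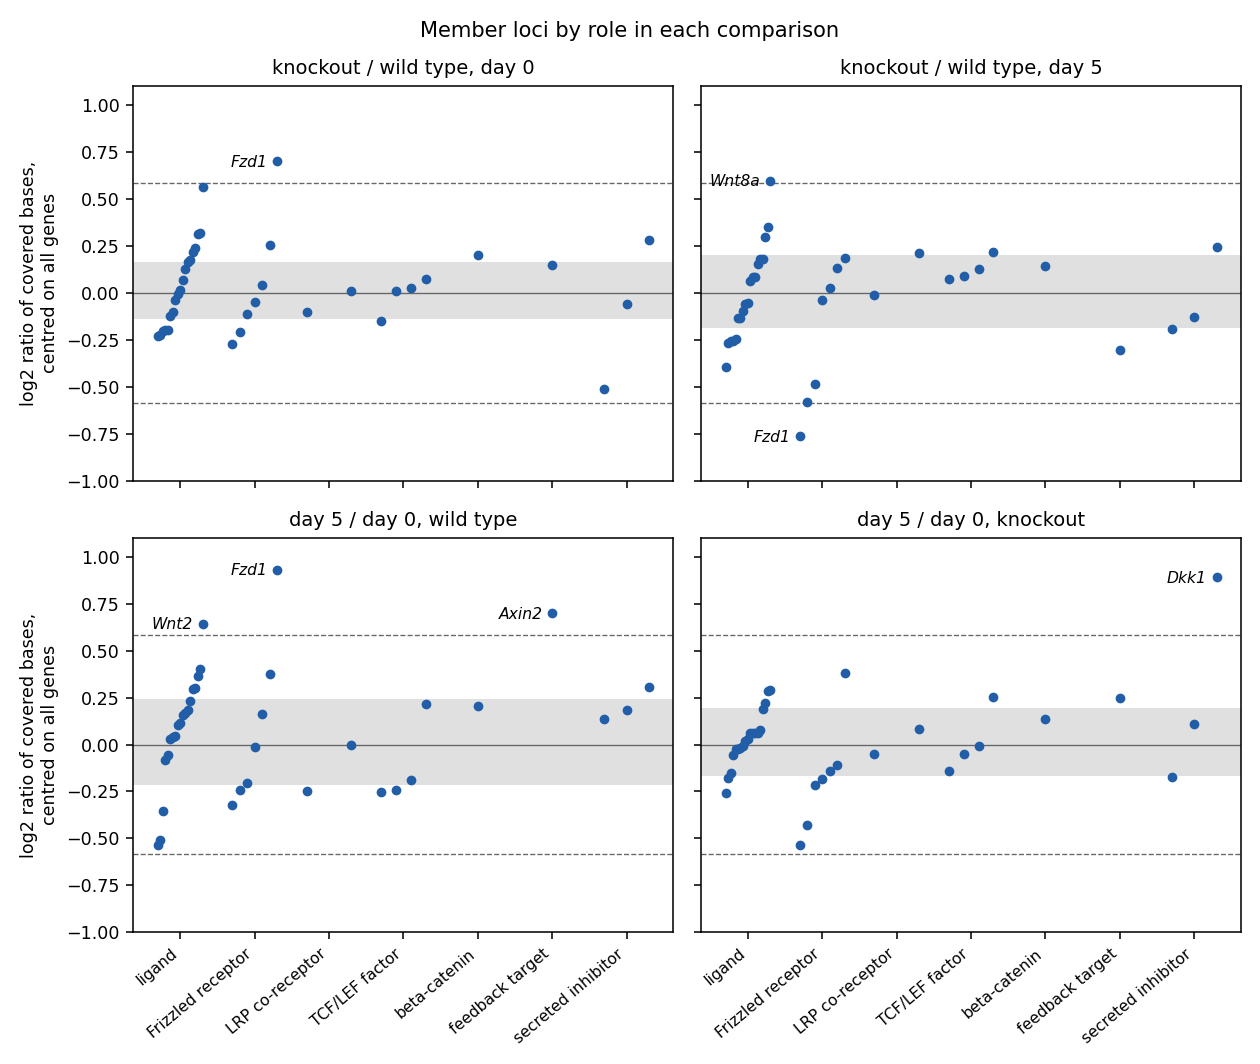
Log2 ratio of covered bases (vertical axis), relative to the median over all genes, for each member by role (horizontal axis) in the 4 comparisons. Grey bands span the interquartile range of all genes, dashed lines mark 1.5-fold, and named points lie past it.

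At day 5 of neural differentiation the same comparison asked how the genotypes differ once cells have left stem cell medium. Wnt8a, a ligand of the early embryo and primitive streak, had 13265 covered bp in wild type against 25169 bp in the knockout, a ratio of 0.60. Fzd1 stood on the other side, with 5822 bp in wild type against 4096 bp in the knockout (-0.76, percentile 1.86). These were the 1 member past 1.5-fold higher and the 1 past it lower, against 5.5 and 3.69% of all genes. The median over members was 0.03, with 19 above and 18 below the median of all genes. By total covered bases 20 were above 0 and 17 below, and that scaling moved the median of all genes to 0.02. With 10 kb of flank Wnt8a had 0.24 and Fzd1 -0.21, and Fzd2 (0.68) was instead the 1 member past the threshold. Wnt8a also fell short with a pseudocount of 2000 bp (0.56) and with numbers of peaks (0.53). By numbers of peaks 0 members were past the threshold higher and 3 lower (Fzd1, Fzd7 and Fzd8). Shares of all genes were not counted under these alternatives.

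In the Wnt8a window, 14 regions were listed in the knockout at day 5 alone of the pair and 1 in wild type alone. The widest lay at chr18:34511370-34512453 within the neighbouring gene Fam13b, 30.4 kb from the Wnt8a gene end, and was present in the knockout at day 0 too. The window is shared with 3 other protein-coding genes. At day 5 its flanks held 12 regions in wild type and 26 in the knockout. The gene end used as the start held 3 and 2, and the rest of the gene body 1 and 1. Within 1 kb of that end, peaks covered 1566 bp in wild type against 1029 bp in the knockout, so the excess lay in the flanks. Fzd8, another receptor gene of a single exon, had -0.580 (7663 bp in wild type against 6237 bp in the knockout), just inside the threshold, and Fzd7 had -0.49. At Fzd8 a region of 1124 bp (chr18:9190663-9191786), 21.6 kb from the gene end, was listed in both wild-type libraries and in the knockout at day 0, and not in the knockout at day 5. Other Frizzled genes reached at most 0.19 (Fzd10).

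Of the 19 ligands 9 were above and 10 below the median of all genes at day 5, and those other than Wnt8a ran from -0.40 (Wnt5a) to 0.35 (Wnt8b). Lrp5 and Lrp6 had 0.21 and -0.01. All 4 TCF/LEF genes were slightly above the median of all genes, from 0.07 (Tcf7l2) to 0.21 (Tcf7l1). Ctnnb1 had 0.14, and Axin2 had -0.30, with 22723 covered bp in wild type against 22720 bp in the knockout. Since the knockout list is longer, equal coverage gives a ratio below the median. The inhibitor genes ran from -0.19 (Sfrp2) to 0.24 (Dkk1).

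Day 5 and day 0 were compared within wild type to describe the course of differentiation. Axin2, the negative regulator whose transcription is a common readout of canonical Wnt signalling, had 16272 covered bp at day 0 and 22723 bp at day 5, a ratio of 0.70. Fzd1 had 3393 and 5822 bp (0.93) and Wnt2, a ligand of lung and placenta development, 8282 and 11186 bp (0.64). These 3 members were past 1.5-fold higher and 0 were past it lower, against 9.27 and 4.38% of all genes. Scaled by total covered bases, 1 was past it higher (Fzd1, 0.75) and 2 lower (Wnt8b, -0.71, and Wnt8a, -0.68). With 10 kb of flank there were again 1 higher and 2 lower, but other genes: Wnt6 (0.70), Fzd10 (-0.95) and Fzd2 (-0.61). Shares of all genes were not counted under these settings. The member median was 0.12, with 23 above and 14 below the median of all genes. By total covered bases 14 were above 0 and 23 below, but that scaling moved the median of all genes to -0.18. Axin2 then had 0.52 and Wnt2 0.47. With 10 kb of flank Axin2 had 0.55, Fzd1 0.51 and Wnt2 0.05, and Wnt2 also fell short with a pseudocount of 2000 bp (0.57) and, at the limit itself, with numbers of peaks (0.58).

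The Axin2 window contains no other protein-coding gene. Of its 37 regions 13 were listed in all libraries, including the one at the start, and 11 were listed in wild type at day 5 and not at day 0, against 4 the other way. The window had 26 peaks at day 5 and 19 at day 0 in wild type. Over the genome 33% of wild-type day 5 regions were not listed at day 0, and 35.9% of day 0 regions were not listed at day 5. The widest of the 11, at chr11:108902215-108903246, lay 17.6 kb upstream of the Axin2 start and was listed at day 5 in both genotypes and at day 0 in neither. In the Axin2 gene body, regions at chr11:108935417-108936278 and chr11:108947213-108948103 were listed in both knockout libraries and in neither wild-type library. At Fzd1 the widest region listed in wild type at day 5 and not at day 0 (chr5:4788085-4789159, 30.4 kb upstream, in a window shared with Cdk14) was also listed in both knockout libraries. At Wnt2 the widest region that separated the days (chr6:17947316-17948307, 82.6 kb downstream of the start) was likewise listed at day 5 in both genotypes. At the other end of the ligands, Wnt8b had 19847 bp at day 0 and 11456 bp at day 5 (-0.54). Beside the same genome shares as at Axin2, 10 regions were listed at day 0 alone of the pair (24 peaks) and 0 at day 5 alone (14 peaks). The widest of these (chr19:44454607-44455928, 38.2 kb upstream of Wnt8b, in a window shared with 3 other genes) was listed in both knockout libraries as well. Wnt8a had -0.51. In all, 14 ligands were above and 5 below the median of all genes.

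Among the other members of wild type, Frizzled genes ran down to -0.32 (Fzd10), Lrp5 had -0.25, and 3 of 4 TCF/LEF genes were below the median of all genes, the lowest being Lef1 (37288 bp at day 0 and 26565 bp at day 5, -0.25). Tcf7l2 had 0.21 and Ctnnb1 0.20. The 3 inhibitor genes ran from 0.14 (Dkk1) to 0.31 (Sfrp2).

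In the knockout the same comparison put Dkk1 alone past the threshold. DKK1 binds LRP5 and LRP6 and blocks canonical signalling. Peaks covered 4655 bp of its window at day 0 and 8794 bp at day 5, a ratio of 0.89 (percentile 98.0). It was the 1 member past 1.5-fold higher, and 0 were past it lower, against 5.52 and 1.6% of all genes. The member median was -0.01, with 18 above and 19 below the median of all genes. By total covered bases 10 were above 0 and 27 below, but that scaling moved the median of all genes to -0.09. Over the genome 27.4% of knockout day 5 regions and 25.4% of knockout day 0 regions were listed on that day alone of the pair. At Dkk1, with 11 and 6 peaks, 5 regions were listed at day 5 alone and 0 at day 0 alone. Of these, 3 were also listed in wild type at day 5 and in neither library at day 0: chr19:30516138-30517168 and chr19:30521333-30522231 downstream of Dkk1, and chr19:30548682-30548986 within it. The first lay 32.8 kb from the start. With 10 kb of flank the Dkk1 ratio was 0.44, and Fzd3 (0.63) was instead the 1 member past the threshold. With 100 kb of flank the Dkk1 ratio was 0.99 in the knockout, and Dkk1 was then past the threshold in wild type too (0.93).

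Of the 19 ligands 11 were above and 8 below the median of all genes in the knockout, from -0.26 (Wnt4, 22146 bp at day 0 and 17933 bp at day 5) to 0.29 (Wnt11). Of the 7 Frizzled genes, 6 were below the median of all genes, from -0.54 (Fzd1, 6350 and 4096 bp) and -0.43 (Fzd7, 23373 and 16790 bp) upward, and Fzd5 had 0.38. Lrp5 and Lrp6 had -0.05 and 0.08, and the TCF/LEF genes ran from -0.14 (Lef1) to 0.25 (Tcf7l2). Ctnnb1 had 0.14, Axin2 0.24 and Sfrp2 -0.17.

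**Figure D4:**
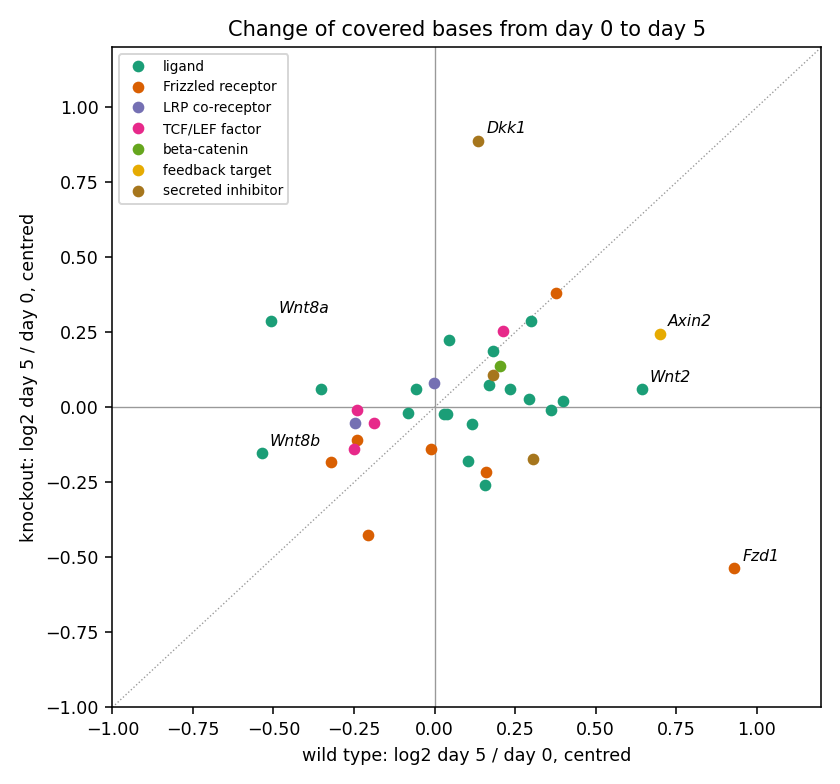
Log2 ratio of covered bases at day 5 to day 0 in wild type (horizontal axis) and in the knockout (vertical axis), each relative to the median of all genes, for the 37 members coloured by role; the dotted line marks equal values. Fzd1 lies at 0.93 and -0.54, Dkk1 at 0.14 and 0.89, and Axin2 at 0.70 and 0.24.

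The time courses of the genotypes, which have no library in common, were set against each other. The difference, knockout minus wild type, was past 1.5-fold higher at Wnt8a (0.80) and Dkk1 (0.75) and past it lower at Fzd1 (-1.47). These are 2 and 1 of 37 members, against 6.39 and 7.2% of all genes. Across the 37 members Pearson's r between the time courses was 0.07, against 0.34 across 19168 genes. Without Fzd1, the member with the largest difference, r over members was 0.29. Fzd1 was left out after its values were seen and no gene was left out of the 19168, so 0.29 and 0.34 are not like for like. Genes that share windows and libraries are not independent, so these are descriptions. Both time courses had the same sign at 24 members (64.9%, against 61.8% of all genes). Axin2 had a difference of -0.46 and Wnt2 of -0.58. With 10 kb of flank Wnt8a had a difference of 0.42, and with 100 kb Dkk1 had 0.06. With 100 kb 1 member was past the threshold higher (Wnt8a) and 3 lower (Fzd1, Wnt2 and Axin2). With 10 kb 4 were higher (Fzd2, Fzd3, Fzd10 and Dkk1) and 1 lower (Fzd1). The shares of all genes given above hold for 50 kb and were not counted for these flanks. The Fzd1 difference stayed past the threshold in all 9 alternatives, from -1.84 to -0.87.

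Fzd1 and Dkk1, which gave the highest ratios, are among the 3 members (with Fzd8) whose windows had under 10 kb covered on average. Genes with few covered bases passed the threshold more often. Among those under that limit, which was set after the values were seen, 18.3, 28.6, 36.3 and 24.6% were past 1.5-fold in either direction (knockout against wild type at day 0 and day 5, then day 5 against day 0 in wild type and knockout), against 1.98, 4.36, 8.36 and 2.67% of the other genes. For the difference of time courses the shares were 37.1 and 8.22%. At Fzd1 the counts were 4, 7, 7 and 5 peaks in library order, and 2 of its 12 regions were listed in all libraries. Of the 6 fibroblast markers, 4 had the signs of Fzd1 in all 4 comparisons. Values in the order of the comparisons were 0.71, -1.03, 1.58 and -0.16 at Postn, 0.40, -0.79, 1.05 and -0.15 at Col3a1, and between -0.14 and 0.42 at Col1a1 and Col1a2. The other two had other signs, with 0.49, 0.17, 0.52 and 0.19 at Pdgfrb and 0.02, 0.10, -0.14 and -0.06 at Thy1. Outside the fibroblast list, Nes and Hes5 (neural), Sox7 (endoderm) and Eomes (mesoderm) had the signs of Fzd1 too, and the other markers did not. The comparisons share libraries, so their signs are linked, and the share of all genes with these signs was not counted. The part of fibroblasts in the Fzd1 values was not tested.

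**Figure D5:**
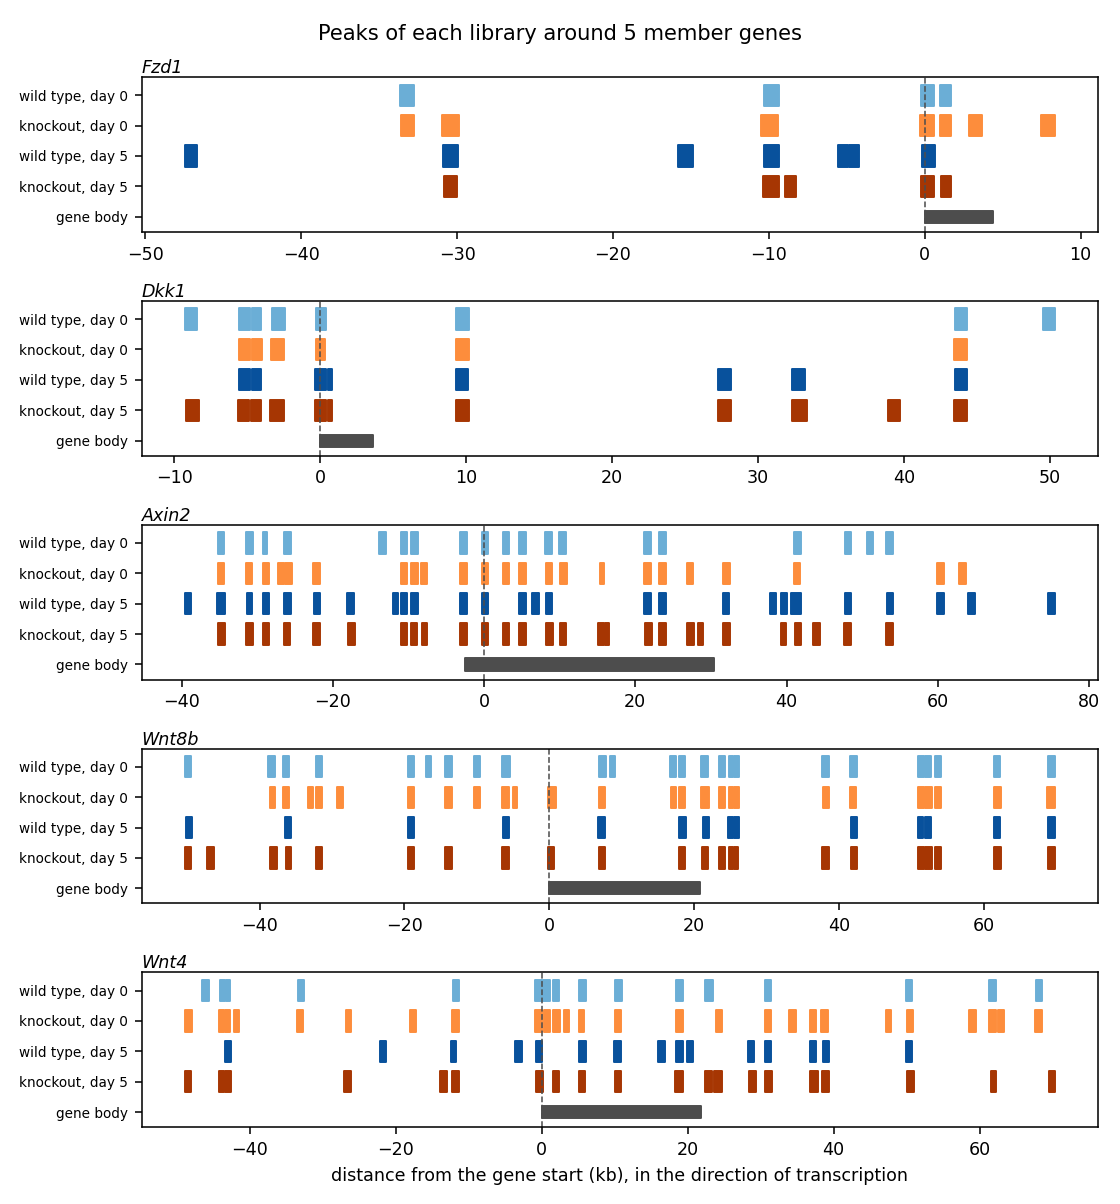
Peaks of each library (coloured bars, 1 row per library) around Fzd1, Dkk1, Axin2, Wnt8b and Wnt4, by distance from the gene start (kb, dashed line at 0) in the direction of transcription, with the gene body in grey. The Wnt8b start carries a peak in the 2 knockout rows alone, and Fzd1 shares 2 regions among all 4 rows.

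Joined wherever they overlapped, peaks in the windows of the family formed 1231 regions, and 482 of these (39.2%, 95% exact binomial interval 36.4 to 41.9) were listed in all 4 libraries, against 33.8% of the 328524 regions of the genome. Intervals cover counting error only. Regions in the windows of neighbouring members were counted once, and placed by the member listed first. The starts of Wnt9a, Wnt9b, Wnt10a and Wnt10b were thus counted in the flanks of Wnt3a, Wnt3, Wnt6 and Wnt1. Regions of their gene bodies were placed by the same rule. Of the regions at the other member starts 42 of 58 were listed in all libraries (72.4%, 59.1 to 83.3), and over the starts of all protein-coding genes the share was 76.2%. Elsewhere in member gene bodies it was 139 of 377 (36.9%, 32.0 to 42.0), against 30.5% over all gene bodies away from starts, and in the flanks 301 of 796 (37.8%, 34.4 to 41.3), against 31.1% outside genes, although some flanks hold neighbouring genes. Among single genes the share listed in all libraries ran from 16.7% at Fzd1 to 64.1% at Wnt10b. Regions listed on day 0 in both genotypes and on day 5 in neither numbered 78 (6.34%, 5.04 to 7.85; genome 5.73%), and the converse 46 (3.74%, 2.75 to 4.95; genome 5.01%). Both knockout libraries alone shared 38 regions (3.09%, 2.19 to 4.21; genome 3.68%) and both wild-type libraries alone 12 (0.975%, 0.505 to 1.70; genome 0.854%).

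Wild type listed 289 of its 825 day 0 regions in these windows no longer at day 5 (35.03%, 31.8 to 38.4), close to the 35.9% of the genome. The knockout did so for 200 of 902 (22.2%, 19.5 to 25.03; genome 25.4%). Regions new at day 5 made up 181 of 717 in wild type (25.2%, 22.1 to 28.6; genome 33%) and 184 of 886 in the knockout (20.8%, 18.1 to 23.6; genome 27.4%). Regions that both genotypes had at day 0 and the knockout alone kept at day 5 numbered 133 (10.8%, 9.12 to 12.7; genome 8.94%), and those that wild type alone kept numbered 20 (1.62%, 0.995 to 2.50; genome 1.70%). Lrp5 and Tcf7l1 had the most of the former, with 11 each, but their windows held 49 and 78 regions. Wnt8b had 6 of 29, so these counts also follow the number of regions in a window.

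Of 59 further genes of the pathway (other receptors, R-spondins and their LGR receptors, the destruction complex, planar polarity genes and known targets), 4 were past 1.5-fold higher and 0 lower in the knockout at day 0, and 0 were higher and 5 lower at day 5. Over all genes the shares were 3.37 and 1.76% at day 0 and 5.5 and 3.69% at day 5. The highest at day 0 was Rspo2 (0.68), which encodes a secreted enhancer of Wnt signalling, and the lowest Rspo3 (-0.48). At day 5 the lowest was Lgr5 (-0.83), an R-spondin receptor gene with 21648 covered bp in wild type against 14894 bp in the knockout, and the highest Porcn (0.56), an X-linked gene for the enzyme that lipidates Wnt proteins. From day 0 to day 5, 7 of the 59 were past 1.5-fold higher and 1 lower in wild type, and 5 higher and 2 lower in the knockout, beside 9.27 and 4.38% of all genes in wild type and 5.52 and 1.6% in the knockout. Rspo2 led in wild type (5265 bp at day 0 and 20008 bp at day 5, 2.06) and Rspo3 in the knockout (2502 and 7932 bp, 1.53), and the lowest were Sfrp4 in wild type (-0.71) and Dkk2 in the knockout (-0.62). Medians of the list were -0.02, -0.12, 0.04 and -0.01 in the order of the comparisons above.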

How the data were processed

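For every library the authors deposited a list of peak positions with no other value. Per the file headers, cellranger-arc 2.0.0 made each list separately with mm10 as reference. The submitters' processing notes also name Scanpy 1.7.2; treatment of doublets is not given in the sources used here. Depth is unknown, so the length of a list limits what can be compared.

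Covered bp were summed per window with Python 3.11.15, pandas 2.3.3 and numpy 2.4.6. The arithmetic was first checked against direct counting in randomly drawn gene windows of the wild-type day 0 list. Gene positions came from RefSeq (GRCm38.p6) and starts from its promoter table (17492 genes; the more accessible gene end for 4395). The first library of a pair was divided by the second. Members and lists were chosen with earlier results of these data known. Named were every member past 1.5-fold and the highest and lowest of each role, start regions that differ between libraries, the widest separating region of up to 8 members, and the extremes of the wider list; other members were named after their values were seen. The limit of 10 kb was added later. Exact intervals used scipy 1.17.1.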

Additional observations from a re-analysis of the deposited data

Results flagged for a closer look

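At 3 loci the change over time took opposite directions in the genotypes, or the genotype ratio took opposite directions on the days, with a difference past 1.5-fold. The share of all genes with such a pattern was not counted. Fzd1 and Dkk1 had under 10 kb covered on average. Among all genes under that limit, 37.1% had a difference of time courses past 1.5-fold in either direction, against 8.22% of the other genes. The differences at the 3 loci were not tested because each group held 1 library. At a locus, the difference of time courses and the difference of genotype ratios between days are the same contrast of the same libraries. They differ only through the medians subtracted, so they are not separate observations. Fzd1 covered more bases at day 5 than at day 0 in wild type and fewer in the knockout, relative to the median of all genes (difference of -1.47, log2), and its knockout ratio was above the median at day 0 and below it at day 5 (-1.46). At Wnt8a the change over time was downward in wild type and upward in the knockout (0.80), and its genotype ratio was below the median at day 0 and above it at day 5 (0.80). At Dkk1 the genotype ratio was below the median at day 0 and above it at day 5 (0.76).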

How the results depend on the processing

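Of 90 values of single genes under 9 alternatives, 74 kept their direction and stayed past 1.5-fold, 16 kept the direction and fell short of it, and none reversed. No paired analysis was possible because each group held 1 library. Numbers of members past 1.5-fold in either direction stayed within 1.5 times except as given below, but the split into higher and lower shifted also where the number did not. Wild type over time went from 3 and 0 to 1 and 2 (total scaling, and 10 kb of flank), the genotypes at day 5 from 1 and 1 to 0 and 3 (numbers of peaks), and the difference of time courses from 2 and 1 to 1 and 3 (100 kb). With 10 kb of flank there was 1 at day 5 between genotypes (Fzd2) and 5 for the difference of time courses. Over time in the knockout that flank gave Fzd3 in place of Dkk1. With 100 kb, wild type had 5 over time. With a pseudocount of 2000 bp there were 0 between genotypes at day 0 and 1 at day 5, and with numbers of peaks 0 at day 0. Scaled by total covered bases the knockout had 2 over time. With the 189516 widest peaks per library there were 2 between genotypes at day 0 and 2 over time in the knockout. Members with a start peak in some libraries only numbered 7 at the start base and 9 with the widest peaks. In the 10 kb windows Wnt2 (0.05 in wild type over time) and Wnt8a (0.24 at day 5) were no longer past the threshold, and with 100 kb the Dkk1 difference of time courses was 0.06. The Wnt8b start pattern held in all alternatives that used its listed start, and at its more accessible gene end all 4 libraries had a peak. The Wnt10b start peak was not among the widest. Shares of all genes were not counted under the alternatives, so these numbers of members have no background beside them. The cause of these shifts was not tested.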
